A study of Mus musculus with 7 samples.

Results

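The clustered protocadherins, a family of neuronal adhesion molecules encoded in 3 adjacent gene clusters on mouse chromosome 18, were followed in bulk RNA-seq of E16 mouse retina. Members were all rows of the deposited table of gene counts whose listed symbol begins with Pcdha, Pcdhb, Pcdhga, Pcdhgb, Pcdhgc or Pcdhac and a number. This gave 59 of 48440 rows, of which 14 belonged to the alpha cluster, 22 to the beta cluster and 23 to the gamma cluster. The libraries were made from pools of embryonic retinas: 1 WT library (Chx10-Cre), 3 Het libraries (Chx10-Cre;Ptbp1lox/WT) and 3 KO libraries (Chx10-Cre;Ptbp1lox/lox). All 7 carried the Cre transgene, which is driven by the Chx10 promoter and therefore acts in retinal progenitors and their descendants, and the Het libraries, which carry a single deletable copy of *Ptbp1*, served as the controls of KO. *Ptbp1* encodes an RNA-binding protein that regulates splicing. Labels give the age as E16 for every library and the methods give the number of pooled retinas, so a library is a pool and not an animal.

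Each alpha and gamma gene has its own promoter and a large first exon that encodes the extracellular cadherin repeats, the transmembrane segment and the start of the cytoplasmic tail, and this variable exon is spliced to a set of constant exons shared by the whole cluster. Beta genes have no constant exons and consist essentially of a single coding exon. A neuron expresses a small, largely random set of alpha, beta, gamma A and gamma B genes, chosen through promoter choice that involves CTCF, cohesin and DNA methylation, whereas the C-type genes at the ends of the alpha and gamma clusters are regulated apart. Isoforms bind matching isoforms on other membranes, which lets the branches of a neuron recognise each other. In the retina the gamma cluster is known for self-avoidance of starburst amacrine cell dendrites and for the survival of interneurons and ganglion cells.

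Counts on genes summed to between 120593979 and 171117305 per library, and clustered protocadherins took 0.0415% to 0.0450% of them. *Ptbp1* itself was at 381 CPM (counts scaled to library size by TMM) in WT, at 210 to 234 CPM in Het and at 27.9, 6.04 and 46.9 CPM in KO1, KO2 and KO3. Markers of retinal progenitors summed to 6109 to 6388 CPM in Het and 6014 to 6240 CPM in KO, with 2 of 10 lower in KO by the call described below. Markers of the classes being born differed between the genotypes, but not all markers of a class went the same way. Over all genes tested, 4.01% were called higher and 3.21% lower. Ganglion cell markers were lower for 3 of 10 (summed 2711 to 2845 CPM in Het, 2228 to 2553 CPM in KO), with 1 log2 fold change positive. Amacrine and horizontal cell markers were higher for 4 of 10 (542 to 600 and 704 to 800 CPM), with 8 positive. Photoreceptor precursor markers were higher for 6 of 10 (734 to 807 and 926 to 1003 CPM), also with 8 positive. Muscle and pigment epithelium markers set Het1 apart, at 333 and 529 summed CPM against 5.40 and 5.80 and against 30.6 and 61.1 CPM in Het2 and Het3, and in KO at 5.27 to 6.07 and 20.8 to 56.1 CPM. Erythroid markers summed to 189 to 530 CPM in Het and 24.4 to 298 CPM in KO, lens markers to 24.8 to 84.1 and 1.89 to 45.4 CPM and microglial markers to 39.5 to 57.8 and 59.2 to 81.5 CPM. Endothelial markers summed to 385 to 405 CPM in Het and 482 to 579 CPM in KO through *Kdr*, the 1 of 7 that was called, while the median log2 fold change of the list was -1.45 and 2 of 7 were positive. None of the progenitor, ganglion, amacrine and horizontal, photoreceptor, muscle or pigment markers was at 0 counts throughout. The part of these differences in the protocadherin results was not tested, and in bulk RNA fewer cells of a type and less RNA per cell cannot be told apart.

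Rows were followed by identifier because 3 symbols were listed for 2 rows each. A row listed as *Pcdhga8* (ENSMUSG00000023036.14) is *Pcdhgc4* in GENCODE M21 and is given that name here, a row listed as *Pcdha11* (ENSMUSG00000007440.10) lies at the RefSeq position of *Pcdha10* and is called so, and the second row of *Pcdhgb8* held 0 counts in every library and has no position. The 58 placed rows all lie on chromosome 18 of GRCm38, from *Pcdha1* (18:36930184-37187661) to *Pcdhgc5* (18:37819513-37841873). By type the 58 comprised 12 alpha, 22 beta, 12 gamma A and 7 gamma B genes and 5 C-type genes, which are *Pcdhac1*, *Pcdhac2*, *Pcdhgc3*, *Pcdhgc4* and *Pcdhgc5*. Annotated alpha genes all end on the same constant exons, as do the gamma genes, so reads there cannot be given to a single gene. If such reads had been counted for every gene that holds these exons, no row could lie below their number, and the lowest alpha row, *Pcdha11*, held 3 to 11 counts while the highest, *Pcdhac2*, held 1618 to 2569. In the gamma cluster the lowest placed row, *Pcdhga10*, held 1 to 13 counts and the highest, *Pcdhgc3*, held 4235 to 5783. Counted that way, constant exons can have added at most these few counts to any row.

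Levels between members were compared as CPM per kb of exon that a gene shares with no other gene on either strand (unshared kb), for the 57 members with at least 300 such bases. *Pcdhgc3*, a C-type gene known for an inhibitory role in Wnt signalling, stood highest at 19.2 ± 0.992 CPM per unshared kb (SD, n = 7 libraries of all genotypes), and its lowest library, at 17.7, lay above every library of every other member. *Pcdhgb6* followed at 7.59 (range 4.96 to 9.31), *Pcdhga11* at 7.48 (5.48 to 9.29) and *Pcdhb17* at 6.18 (5.77 to 6.40), and the ranges of these 3 over all genotypes overlapped. Within Het *Pcdhb17*, at 6.21 to 6.40, lay below *Pcdhgb6* (8.19 to 9.31) and *Pcdhga11* (8.38 to 9.29), whose order was not resolved. In KO2 *Pcdhb17* was above both, at 6.35 against 4.96 and 5.48. After these 3 came *Pcdhac2* at 5.03, *Pcdhga2* at 5.002 and *Pcdhgb7* at 4.85 as means over all genotypes, but their order differed between genotypes. In Het *Pcdhga2* (5.54 to 6.21) lay above *Pcdhac2* (4.31 to 4.99). In KO *Pcdhac2* (5.48 to 5.93) lay above *Pcdhga2* (3.99 to 4.16). Counting only overlaps on the gene's own strand as shared, a choice made after seeing the data, kept *Pcdhgc3* first but at 10.4 CPM per kb and moved *Pcdhga11* from rank 3 to rank 10, at 3.56, since the exons of both overlap genes on the other strand. The same choice moved *Pcdhgb7* from rank 7 to rank 12, at 3.41. The strand setting of the counting is not given in the sources used here.

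The groups spanned different ranges on this per-length scale. Alpha genes ran from 0.0416 to 2.43 CPM per unshared kb with a median of 1.45 over 12, led by *Pcdha7* at 2.43, *Pcdha12* at 2.11 and *Pcdha2* at 1.96. By own-strand length *Pcdha12* was at 1.65, below *Pcdha2*. Beta genes had a median of 1.84 over 22, led by *Pcdhb17*, then *Pcdhb20* at 3.76 and *Pcdhb16* at 3.62, whose ranges overlapped. Gamma A genes ran from 1.67 to 7.48 with a median of 2.85 over the 11 with unshared bases, *Pcdhga10* left out, led by *Pcdhga11*, *Pcdhga2* and *Pcdhga3* at 4.32. By own-strand length *Pcdhga11*, at 3.56, lay below *Pcdhga2*, *Pcdhga3* and *Pcdhga4* (3.76). Gamma B genes had a median of 1.97 over 7, and after *Pcdhgb6* and *Pcdhgb7* the third was *Pcdhgb2* at 2.29. The C-type genes ran from *Pcdhgc3* at 19.2 through *Pcdhac2*, *Pcdhgc4* at 3.48 and *Pcdhac1* at 0.765 to *Pcdhgc5* at 0.183.

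**Figure D1:**
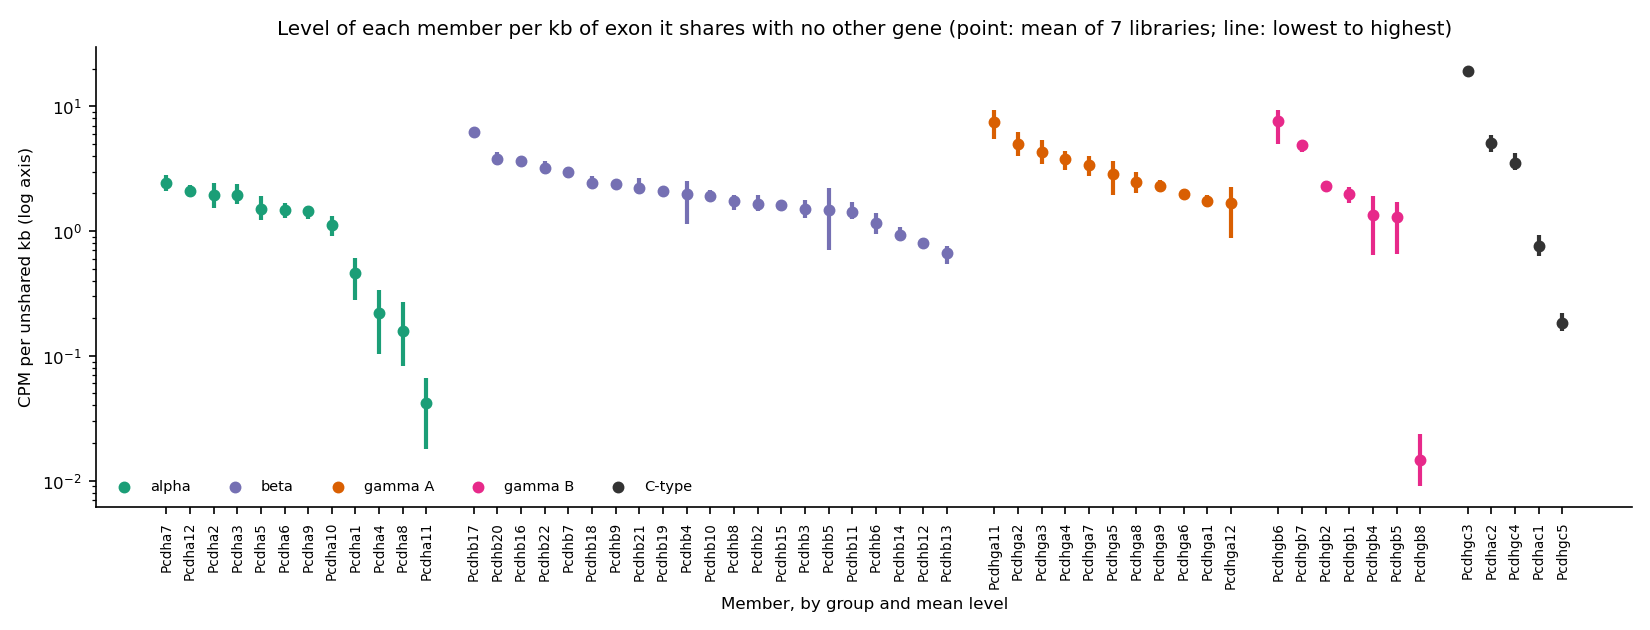
Level of each member in CPM per kb of exon shared with no other gene (y axis, log scale) by group, ordered by mean within a group. Points are means over 7 libraries and lines run from the lowest to the highest library. *Pcdhb1*, with 0 counts in WT, *Pcdhga10*, with 0 unshared bases, and the second row of *Pcdhgb8* are not drawn. *Pcdhgc3* lies above every other member, and the lowest points are those of *Pcdhgb8*, *Pcdha11*, *Pcdha8*, *Pcdhgc5* and *Pcdha4*.

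Several members were close to silent. *Pcdhb1* held 0 to 4 counts per library and *Pcdhgb8* held 3 to 10, and these rows and the empty second *Pcdhgb8* row did not pass the expression filter, which left 56 members for testing. Of the 56, 49 held at least 100 counts in every library. Those below included *Pcdha8* (27 to 113 counts), *Pcdha4* (5 to 19), *Pcdha11* and *Pcdhga10*. *Pcdha4* has 404 of 5768 exonic bases to itself because a readthrough gene and the constant exons cover the rest, and *Pcdhga10* has 0 of 4732 on either strand but 2613 on its own strand, where the antisense gene *Gm26672* overlaps it from the other. Low counts of these rows therefore do not show that the genes were silent. Across all rows of the table, 212 had at least 300 exonic bases of their own on their own strand but none on either strand, and 203 of these (95.8%) held at most 70 counts over the 7 libraries, against 53.5% of 39132 rows with at least 300 bases on both measures.

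KO was compared with Het by edgeR's quasi-likelihood test over 20019 genes, and a gene is called differentially expressed where its Benjamini-Hochberg adjusted p was below 0.05 and its fold change above 1.2 in either direction, the limits of the study's methods. Of the 56 members tested, 9 (16.1%) were differentially expressed, where 7.22% of all genes tested were. Only *Pcdhac2* rose, while 8 members fell, against 4.01% of all genes higher and 3.21% lower. The 8 were *Pcdhb5* in the beta cluster and *Pcdhga2*, *Pcdhga5*, *Pcdhga11*, *Pcdhgb1*, *Pcdhgb4*, *Pcdhgb5* and *Pcdhgb6* in the gamma cluster. Every KO library lay below every Het library for 16 members and above for 9, where 17.7% and 18.6% of all genes tested did so. DESeq2, the tool of the study's methods, called by the same limits 14 of the 53 members to which it gave an adjusted p, and 2070 of 17813 genes (11.6%). The 14 were these 9 and, all lower, *Pcdhb4*, *Pcdhga3*, *Pcdhga4*, *Pcdhga7* and *Pcdhga12*. At an unadjusted p below 0.05 edgeR gave 22 of 56 members and 5952 of 20019 genes. For a gene taken by itself, 3 Het and 3 KO libraries allow an exact permutation p of 0.1 at the lowest.

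The direction of the values was not the same in the 3 clusters. In the gamma cluster 18 of 21 tested members had a negative log2 fold change, the median was -0.30, and 7 were differentially expressed. In the alpha cluster 11 of 14 were positive, the median was 0.22, and 1 was differentially expressed. In the beta cluster 12 of 21 were positive, the median was 0.0083, and 1 was differentially expressed. Over all genes tested the median was -0.0047 and 7.22% were differentially expressed. The shares were 33.3% in the gamma cluster, 7.14% in alpha and 4.76% in beta, so only the gamma share lay above that of all genes. These medians are descriptions of lists chosen by name, and members of a cluster are neighbours that are expressed in the same cells, not replicates of genotype.

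**Figure D2:**
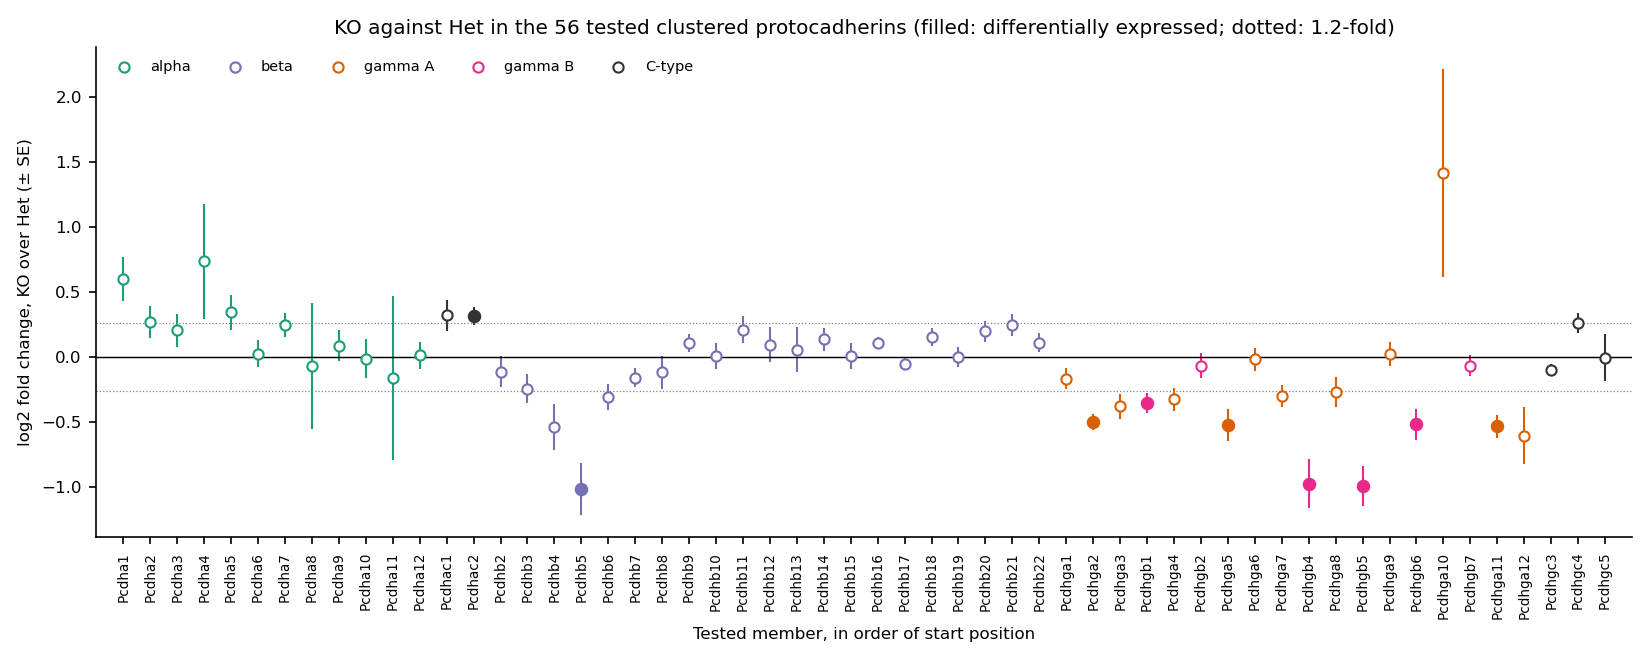
Log2 fold change of KO over Het (y axis, points with SE from edgeR) for the 56 tested members in order of their start positions along the chromosome, coloured by group. Filled points are differentially expressed and dotted lines mark a fold change of 1.2. Alpha members lie mostly above 0, beta members change from below to above 0 along the cluster, gamma A and gamma B members lie mostly below 0, and the wide bars belong to rows with few counts.

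The steepest falls in the gamma cluster were in gamma B genes. *Pcdhgb5* was at 7.81, 7.90 and 6.88 CPM in Het1 to Het3, at 3.77, 3.02 and 4.54 CPM in KO1 to KO3 and at 7.61 CPM in WT. Every KO library was well under every Het library, and the mean fell from 7.53 ± 0.565 to 3.78 ± 0.762 CPM (SD, n = 3), a log2 fold change of -0.995 ± 0.16 (SE, adjusted p = 0.0148). *Pcdhgb4* was at 6.90, 5.88 and 5.997 CPM in Het, at 3.70, 2.30 and 3.55 CPM in KO and at 5.57 CPM in WT. KO was at 50.9% of Het, with a log2 fold change of -0.98 ± 0.19 and an adjusted p of 0.0256. Like the other genes of its type, each encodes its own cadherin repeats for homophilic binding and joins the gamma constant tail.

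*Pcdhgb6*, the most abundant gamma B gene, was at 22.2, 23.9 and 21.01 CPM in Het, at 16.9, 12.7 and 17.1 CPM in KO and at 22.4 CPM in WT. All 3 KO libraries lay below the others, with KO2 lowest, and the log2 fold change was -0.52 ± 0.12 (adjusted p = 0.0416). *Pcdhgb1* was at 5.92, 5.89 and 5.62 CPM in Het, at 4.49, 4.37 and 4.79 CPM in KO and at 5.16 CPM in WT. Its libraries varied little within a genotype, and its log2 fold change was -0.35 ± 0.08 (adjusted p = 0.0355). The other tested gamma B genes, *Pcdhgb2* and *Pcdhgb7*, overlapped between the genotypes, with KO means at 95.4% of Het for each and log2 fold changes of -0.07 ± 0.09 and -0.07 ± 0.08. Thus 4 of 6 tested gamma B genes were differentially expressed, where 7.22% of all genes tested were, and the group median was -0.44.

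Among gamma A genes 3 of 12 were differentially expressed, where 7.22% of all genes tested were, and the median log2 fold change was -0.31. *Pcdhga2* was at 15.98, 14.5 and 14.3 CPM in Het, at 10.6, 10.7 and 10.3 CPM in KO and at 13.8 CPM in WT. The KO libraries were nearly equal and lay below all others, and *Pcdhga2* had the smallest adjusted p of any member (log2 fold change -0.50 ± 0.06, adjusted p = 0.00831). *Pcdhga11* was at 10.5, 11.1 and 11.7 CPM in Het, at 8.20, 6.88 and 7.87 CPM in KO and at 9.53 CPM in WT, a log2 fold change of -0.54 ± 0.09 (adjusted p = 0.0161). For *Pcdhga11*, as for *Pcdhga2*, *Pcdhga5*, *Pcdhgb1* and *Pcdhgb4*, the WT library lay between Het and KO. *Pcdhga5* was at 8.03, 9.31 and 7.97 CPM in Het, at 6.36, 4.92 and 6.34 CPM in KO and at 7.84 CPM in WT, with a log2 fold change of -0.52 ± 0.12 (adjusted p = 0.0445).

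A further 5 gamma A genes had every KO library below every Het library without meeting the call. In *Pcdhga12* the log2 fold change was the most negative of its type at -0.61 ± 0.22, but KO2, at 3.65 CPM, stood apart from KO1 and KO3 at 6.29 and 6.22 CPM, and the adjusted p was 0.122. *Pcdhga3* gave -0.38 ± 0.10 (adjusted p = 0.0550), *Pcdhga4* gave -0.33 ± 0.09 (0.0625) and *Pcdhga7* gave -0.30 ± 0.08 (0.0654). The fifth, *Pcdhga1*, had a KO mean of 89.0% of Het. *Pcdhga6*, *Pcdhga8*, *Pcdhga9* and *Pcdhga10* overlapped between the genotypes. *Pcdhga10* had the largest absolute log2 fold change of any member, 1.41 ± 0.80, from 1 to 5 counts in Het and 2 to 13 in KO, and an adjusted p of 0.283, so no change was detectable at this depth. Its antisense neighbour *Gm26672*, named after its values were seen, was at 0.901, 0.663 and 0.712 CPM in Het and 0.521, 0.494 and 0.638 CPM in KO.

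Over gamma A and gamma B together, 16 of 18 tested genes had a negative log2 fold change and 12 had every KO library below every Het library, where 17.7% of all genes did so. The genes that fell were spread along the cluster, from *Pcdhga2* near its start to *Pcdhga11* near its end, and the rank correlation of log2 fold change with position was -0.10 over 18 genes, which share libraries and are given as a description. Among the 8 members that fell, KO2 was the lowest KO library in 7. KO2 also held the least *Ptbp1*, at 6.04 CPM, and was the lowest KO library in 16 of the 56 tested members, against 32 for KO3. Whether the level of *Ptbp1* bears on these differences between KO libraries was not tested.

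**Figure D3:**
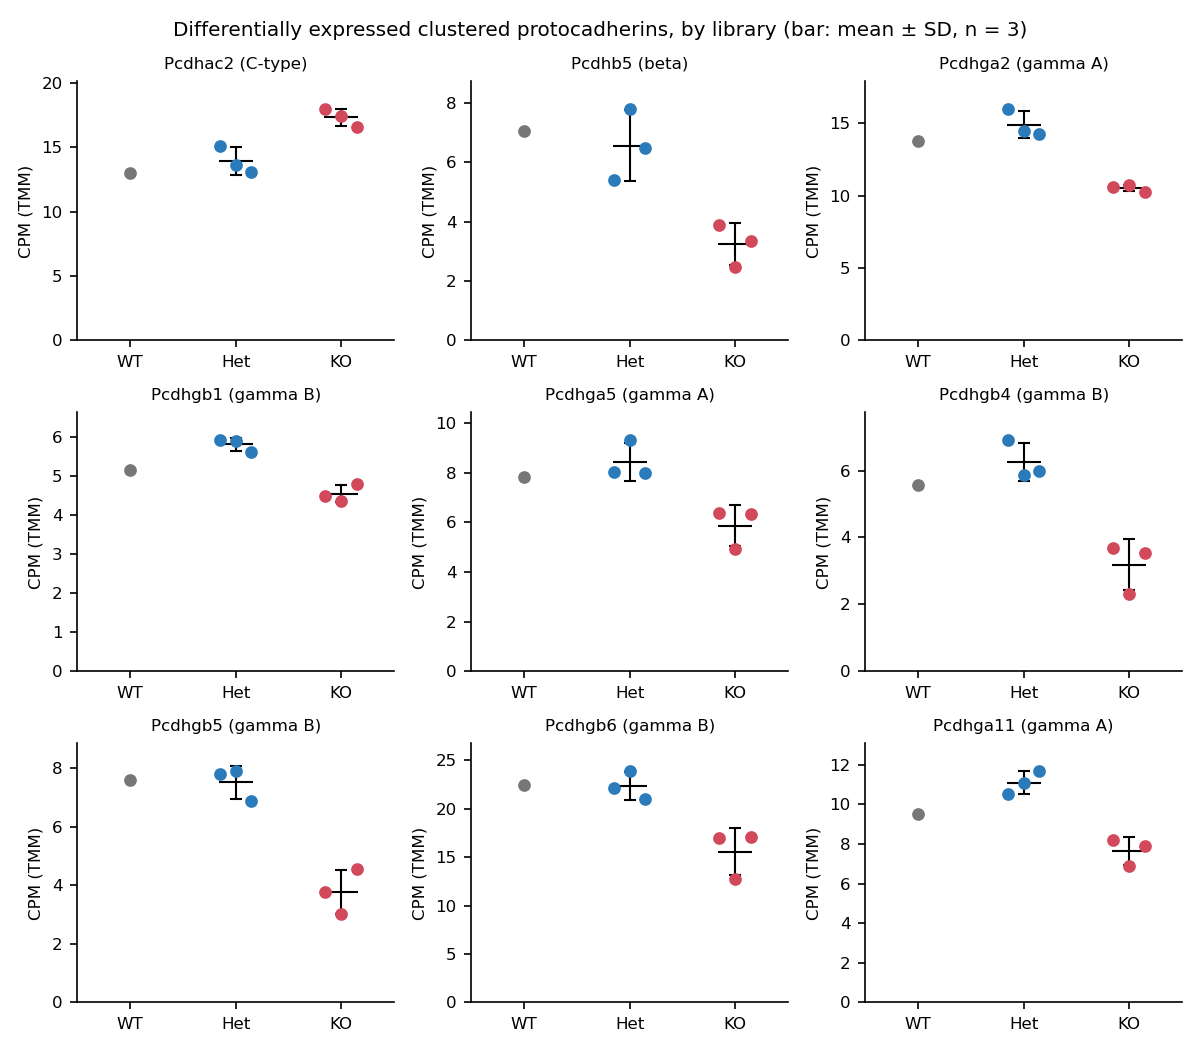
CPM after TMM normalization (y axes from 0) in each library for the 9 differentially expressed members, with WT, Het and KO libraries as points and the mean ± SD over 3 libraries as bars. *Pcdhac2* is higher in every KO library than in any other library, and the other 8 members are lower in every KO library than in any Het or WT library.

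Beta genes did not move as a block. The first 7 tested, *Pcdhb2* to *Pcdhb8*, all had negative log2 fold changes with a median of -0.25. Of these, 4 had every KO library below every Het library, where 17.7% of all genes tested did so. Of the 14 that follow along the chromosome, *Pcdhb9* to *Pcdhb22*, 12 were positive with a median of 0.11. In 4 of the 14 every KO library lay above every Het library, where 18.6% of all genes tested did so. The rank correlation of log2 fold change with position was 0.71 over the 21 genes, a description of genes that share libraries, and the split at *Pcdhb8* was chosen after the values were seen. Of the first 7 genes 1 was differentially expressed, and of the 14 later ones 0 by edgeR and by DESeq2, with 2 at an unadjusted p below 0.05. The tools called 7.22% and 11.6% of all genes, so 0 of 14 does not set the later genes apart.

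*Pcdhb5* was at 5.42, 7.78 and 6.47 CPM in Het, at 3.89, 2.49 and 3.34 CPM in KO and at 7.06 CPM in WT. The lowest Het library lay above the highest KO library, and the log2 fold change was -1.02 ± 0.20 (adjusted p = 0.0266), the steepest fall of any member. Its neighbours *Pcdhb4* and *Pcdhb6* also had non-overlapping libraries without meeting the call. *Pcdhb4* was at 8.04, 9.32 and 7.99 CPM in Het and 6.79, 4.25 and 6.39 CPM in KO, a log2 fold change of -0.54 ± 0.18 (adjusted p = 0.102). *Pcdhb6* gave -0.31 ± 0.10 (adjusted p = 0.0938). The abundant beta genes lie further along the cluster and differed little. *Pcdhb17* had KO at 96.1% of Het, *Pcdhb16* at 108% and *Pcdhb20* at 115%, with log2 fold changes of -0.06 ± 0.04, 0.11 ± 0.05 and 0.20 ± 0.08 and adjusted p-values of 0.429, 0.195 and 0.160. The largest positive value among beta genes was that of *Pcdhb21*, at 118% of Het with every KO library above every Het library (log2 fold change 0.24 ± 0.08, adjusted p = 0.111).

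C-type genes can be expressed without the random choice of the others. Log2 fold changes were positive for 2 of 2 in the alpha cluster and 1 of 3 in the gamma cluster (median -0.0070), too few genes to compare the clusters. *Pcdhac2*, known for axonal tiling of serotonergic neurons, was at 15.1, 13.6 and 13.1 CPM in Het, at 17.9, 17.4 and 16.6 CPM in KO and at 12.96 CPM in WT. Every KO library was above every other library, and the mean rose from 13.9 ± 1.07 to 17.3 ± 0.679 CPM, a log2 fold change of 0.31 ± 0.07 (adjusted p = 0.0367). *Pcdhac1* had the same direction, at 1.71, 1.92 and 1.75 CPM in Het and 2.37, 2.31 and 2.03 CPM in KO, with a log2 fold change of 0.32 ± 0.12 (adjusted p = 0.129). *Pcdhgc4*, the gamma isoform known for neuronal survival, was at 11.04, 11.5 and 11.2 CPM in Het and 14.8, 13.1 and 12.5 CPM in KO, without overlap. Its log2 fold change of 0.26 ± 0.08 lay just under the fold limit (adjusted p = 0.0725).

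*Pcdhgc3*, the most abundant member, was at 34.0, 36.9 and 36.9 CPM in Het, at 34.3, 32.2 and 34.3 CPM in KO and at 36.5 CPM in WT. The genotypes overlapped, and the log2 fold change was -0.10 ± 0.05 (adjusted p = 0.207). *Pcdhgc5*, the weakest C-type gene, had KO at 99.5% of Het. In the 5 C-type genes as a group, 3 were positive and 1 was differentially expressed, where 7.22% of all genes were. The median log2 fold change was 0.26. The 3 gamma C-type genes lie at the same end of the cluster as *Pcdhga11* and *Pcdhga12*, and 0 of the 3 were called by edgeR or DESeq2, with 1 (*Pcdhgc4*) at an unadjusted p below 0.05. The tools called 7.22% and 11.6% of all genes, so 0 of 3 does not set these genes apart.

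The 12 alpha genes had 9 positive log2 fold changes, a median of 0.14 and 0 differentially expressed by edgeR or DESeq2, with 3 at an unadjusted p below 0.05. The tools called 7.22% and 11.6% of all genes, so 0 of 12 does not set the alpha genes apart. *Pcdha1*, one of the weaker alpha genes, showed the clearest separation, at 0.995, 0.781 and 1.13 CPM in Het, 1.51, 1.52 and 1.38 CPM in KO and 0.699 CPM in WT. The KO libraries lay above all others, with a log2 fold change of 0.60 ± 0.17 and an adjusted p of 0.0687. *Pcdha7*, the most abundant alpha gene per length, was also separated, at 4.45, 5.09 and 4.94 CPM in Het and 5.78, 6.06 and 5.30 CPM in KO (log2 fold change 0.24 ± 0.09, adjusted p = 0.138). *Pcdha2* gave 0.27 ± 0.12 (adjusted p = 0.200) and *Pcdha12* gave 0.01 ± 0.11 (0.954), with overlapping libraries. The largest alpha value, 0.73 ± 0.44 for *Pcdha4*, came from 5 to 19 counts per library and had an adjusted p of 0.309.

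Summed over rows, the gamma A group was at 78.3% of Het (95.5 ± 3.37 CPM in Het, 74.7 ± 2.61 in KO) and the gamma B group at 72.9% (57.6 ± 2.57 and 42.0 ± 3.90 CPM). For each of these sums the 3 KO libraries lay below the 3 Het libraries and WT. The whole gamma cluster, C-type genes included, was at 203, 205 and 195 CPM in Het, 171, 155 and 167 CPM in KO and 193 CPM in WT. The alpha cluster was at 49.1, 48.3 and 44.9 CPM in Het, 57.8, 56.3 and 52.1 CPM in KO and 45.2 CPM in WT, and KO was 117% of Het. For the beta cluster the libraries overlapped and KO was 99.5% of Het (197 ± 6.001 and 196 ± 9.82 CPM). The C-type sum was 63.8 ± 1.02 CPM in Het and 67.5 ± 2.32 CPM in KO, and all clustered protocadherins together were at 93.4% of Het. No test was made of these sums.

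**Figure D4:**
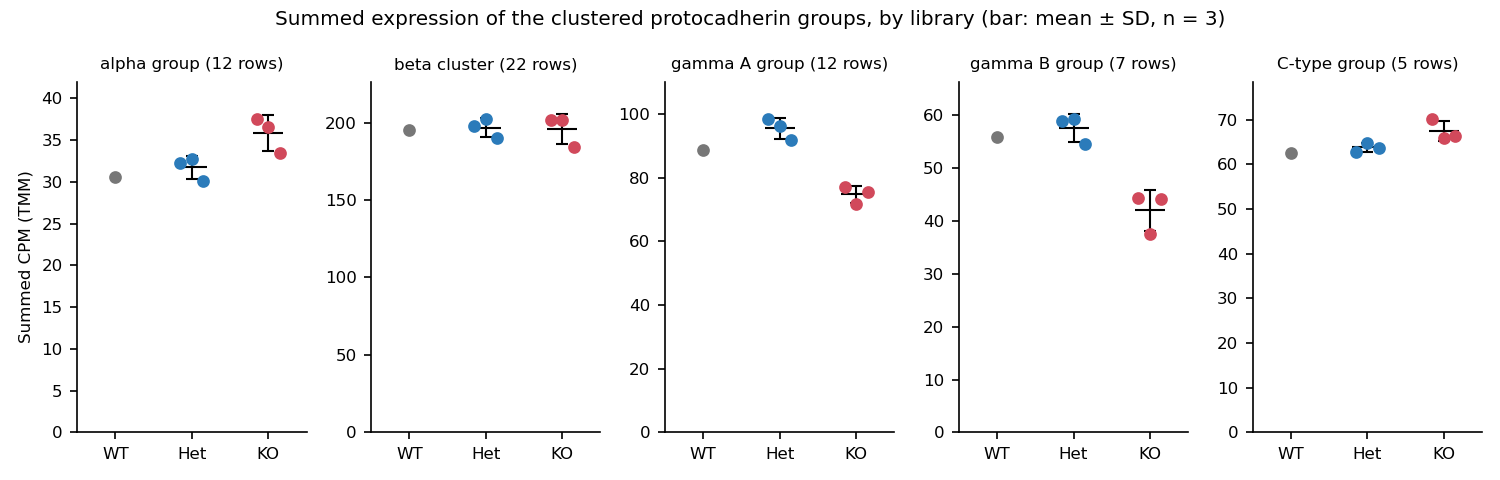
Summed CPM of the alpha, beta, gamma A, gamma B and C-type genes (y axes from 0) in each library, with bars for the mean ± SD over 3 Het and 3 KO libraries. KO libraries lie below Het and WT for gamma A and gamma B, above them for alpha and C-type, and among them for beta.

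Shares do not depend on library scaling. By CPM per unshared kb, the gamma cluster held 56.7%, 56.6% and 57.3% of all clustered protocadherin expression in Het, 51.2%, 49.3% and 53.0% in KO and 56.1% in WT. The size of these shares depends on the lengths used, since *Pcdhgc3* was at 19.2 CPM per unshared kb but 10.4 per own-strand kb. Without length, the Het sums were 201 ± 5.12 CPM for gamma and 197 ± 6.001 CPM for beta. The alpha share went from 12.8% ± 0.341 in Het to 16.2% ± 0.625 in KO (SD, n = 3), and the beta share from 30.3% ± 0.283 to 32.6% ± 1.24. For all 3 clusters the shares of the KO libraries did not overlap those of Het. WT was at 12.6% for alpha. Its beta share of 31.3% lay above every Het library (30.1% to 30.7%) and close to the lowest KO library (31.4%). The 3 shares are parts of 1 whole, and the summed CPM of the beta cluster in KO was 99.5% of Het. Within the gamma cluster the C-type genes went from 26.8% ± 1.28 to 31.7% ± 0.349, and within the alpha cluster from 27.3% ± 0.814 to 29.2% ± 0.351. The 3 leading genes of a cluster held 46.3% of alpha, 29.1% of beta and 43.2% of gamma expression in Het, and 46.7%, 30.7% and 43.0% in KO.

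The single WT library, which has no replicate, lay within the range of the Het libraries for 26 of the 56 tested members, below it for 21 and above it for 9. In the gamma cluster it lay within that range for 11 members, below it for 10 and above it for 0. For each of the 8 members that fell WT lay above every KO library, and for *Pcdhac2* it lay below every KO library. Of the 16 members with KO below all Het, WT was above every KO library in 14, and of the 9 with KO above all Het, WT was below every KO library in 8.

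Single libraries weighed on the calls. *Pcdhga2* was differentially expressed whichever Het or KO library was left out, *Pcdhgb5* in 5 of the 6 such fits and *Pcdhga11* in 4. *Pcdhb5* and *Pcdhgb4* were called in 3, *Pcdhac2* and *Pcdhgb6* in 2, *Pcdhgb1* in 1 and *Pcdhga5* in 0, with adjusted p-values up to 0.137 for *Pcdhga5*. Each kept its direction in all 6. Without Het1, the library with muscle and pigment transcripts, 5 members were differentially expressed, 4 of them lower. Without Het2 it was 1, without Het3 it was 2 and without KO1 or KO2 it was 5.

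Of 25 regulators of promoter choice and chromatin at the clusters, 19 had a positive log2 fold change with a median of 0.04, and 9 had every KO library above every Het library, where 18.6% of all genes did so. The 1 of the 25 that was differentially expressed (where 7.22% of all genes were) was *Dnmt3b*, a DNA methyltransferase that methylates protocadherin promoters in the embryo, which was at 16.6 ± 1.24 CPM in Het and 9.44 ± 1.75 CPM in KO, a log2 fold change of -0.82 ± 0.14 (adjusted p = 0.0172). It was not called without Het2, without Het3 or without KO2. The most abundant regulators, the corepressor *Trim28* and the cohesin subunit *Rad21*, had log2 fold changes of -0.08 ± 0.05 and 0.06 ± 0.03. *Ctcf*, the insulator protein that loops cluster promoters to their enhancers, was at 262 ± 5.82 CPM in Het and 268 ± 5.56 in KO (adjusted p = 0.501). *Smchd1*, a repressor of the clusters, had a log2 fold change of 0.06 ± 0.03.

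Of 18 partners and processing enzymes of the cytoplasmic tails, 1 was differentially expressed, where 7.22% of all genes tested were. *Cyfip1*, a subunit of the WAVE complex that regulates actin, was at 77.7 ± 2.33 CPM in Het and 63.3 ± 2.0 CPM in KO, a log2 fold change of -0.30 ± 0.04 (adjusted p = 0.00787). The most abundant, *Marcks* and *Cyfip2*, gave -0.03 ± 0.04 and -0.13 ± 0.05. In 7 of the 18 every KO library lay below every Het library and in 1 above, where 17.7% and 18.6% of all genes did so. Genes that border the clusters or lie between them had 0 of 7 differentially expressed by edgeR or DESeq2, with 4 at an unadjusted p below 0.05 by edgeR. The tools called 7.22% and 11.6% of all genes, so 0 of 7 does not set these neighbours apart. Of the 7, 1 had a positive log2 fold change, and the median was -0.11. In 4 every KO library lay below every Het library, where 17.7% of all genes did so. The 7 summed to 425 to 437 CPM in Het and 400 to 414 CPM in KO. The most abundant of them, *Zmat2* and *Hdac3*, gave -0.04 ± 0.03 and -0.11 ± 0.03. *Taf7*, which lies between the beta and gamma clusters, had an adjusted p of 0.0465 with a log2 fold change of -0.12 ± 0.03, under the fold limit. *Hdac3*, just beyond the gamma cluster, had an adjusted p of 0.0545.

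Of 12 tested protocadherins outside the clusters, 5 rose and 0 fell, where 4.01% of all genes were higher and 3.21% lower. The median log2 fold change of the 12 was 0.22. The 5 that rose were *Pcdh10* (29.4 ± 1.99 CPM in Het, 45.5 ± 3.95 in KO, log2 fold change 0.63 ± 0.07, adjusted p = 0.00757), *Pcdh11x* (0.59 ± 0.05), *Pcdh15*, a component of hair cell and photoreceptor adhesion (0.52 ± 0.07), *Pcdh9* (0.49 ± 0.07) and *Pcdh1* (0.45 ± 0.10). The most abundant, *Pcdh17* and *Pcdh19*, gave 0.22 ± 0.04 and -0.14 ± 0.09. Of 11 other genes of self-recognition and lamination in the retina, 5 rose and 1 fell, against the same 4.01% and 3.21% of all genes. *Plxna2*, a semaphorin receptor, gave 0.60 ± 0.04, *Plxna4* gave 0.50 ± 0.10, the spacing receptor *Megf10* gave 0.45 ± 0.05, the self-avoidance molecule *Dscam* gave 0.41 ± 0.06 and the atypical cadherin *Fat3* gave 0.32 ± 0.06, while the lamina-specific adhesion molecule *Sdk1* gave -0.29 ± 0.06. *Sema6a*, next to *Fat3* the most abundant of this list, gave 0.04 ± 0.03. Some photoreceptor, amacrine and ganglion cell markers differed between the genotypes as given above, and their part in these values was not tested.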

How the data were processed

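Paired reads of stranded mRNA libraries were aligned by the authors to GRCm38 (mm10) with STAR, run through rMATS-turbo, and featureCounts assigned them to GENCODE M10 genes. The deposited table holds raw counts per gene. Tool versions, the strand setting and the rule for reads that map to several places are not given in the sources used here. The labels name TRIzol for RNA extraction and the methods a column kit. Groups came from the sample labels. The table had 0 other value columns.

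The test was edgeR 4.0.16 under R 4.3.3 (TMM, filterByExpr by genotype, quasi-likelihood test, KO minus Het with all 7 libraries), which kept 20019 genes, with Benjamini-Hochberg adjustment over all of them. The SE of a log2 fold change is its size over the square root of F. The script was run on simulated counts with less spread than the data and larger changes than most members showed. That run checks the code and not its power here. DESeq2 1.42.0 was an alternative. Exon lengths came from GENCODE M21, names by position from RefSeq on GRCm38.p6. Libraries are separate pools, and replicates differed by 14.0 to 53.2 times the counting variance, so none was a copy.

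Members and lists were chosen with earlier results of these data known. In each group the text names the 3 members highest per unshared kb, every differentially expressed member, those with non-overlapping libraries and a fold change above 1.2, the largest absolute log2 fold change and the members below the filter, and in each list the differentially expressed and the 2 most abundant genes. Names outside this rule (*Pcdha8*, *Pcdha11*, *Pcdhb21*, *Pcdhga1*, *Pcdhga6*, *Pcdhga8*, *Pcdhga9*, *Pcdhgc5*, *Kdr*, *Ctcf*, *Smchd1*, *Taf7*, *Gm26672*) were chosen after their values were seen.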

Additional observations from a re-analysis of the deposited data

How the results depend on the processing

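For alpha, gamma, gamma A and gamma B, and C-type genes the direction of the medians held under DESeq2, RLE and upper-quartile normalization, both other filters, the replicate block and the 6 Het and KO libraries alone, and that of the sums under both normalizations and with single libraries left out. The gamma median was -0.34 to -0.25 and the alpha median 0.16 to 0.29 with single libraries left out, while the beta median crossed 0 (-0.02 to 0.07). The number of differentially expressed members was less steady. DESeq2 called 14 members, 13 lower, with the 9 of edgeR among them, and edgeR's glmTreat, which tests against the fold limit itself, called 0 in either direction, where 22 members had an unadjusted p below 0.05 in the test against no change. Leaving out a library gave 1 to 9 members, 1 to 7 lower and 0 to 2 higher. Over all genes the count was 1445, and 2070 by DESeq2, 2221 by adjusted p alone, 217 by glmTreat and 386, 496 and 612 without Het2, Het3 and KO2. Replicate numbers did not pair libraries, since same-numbered Het and KO libraries correlated at -0.20, 0.16 and -0.07 in their deviations and 0 of the 3 Het libraries correlated best with the KO library of its number. With the number as a replicate block, 5 members were lower. Among related genes, regulators counted 2 by DESeq2, 0 by glmTreat and 0 to 2 with a library left out; protocadherins outside the clusters 2 by glmTreat and 3 to 6; self-recognition genes 1 by glmTreat and 2 to 6. Partners counted 0 by glmTreat and 2 by adjusted p alone, and neighbours 1 by adjusted p alone. The difference in the alpha share was 3.45 percentage points per unshared kb, 2.67 without length and 2.37 per full exon length. For the gamma A share of the gamma cluster the change was -2.99 points, and -2.06, -2.15 and -2.10 without length, per full exon length and per own-strand length. For the gamma B share it was -1.84, and -3.14 and -2.69 without length and per full exon length. The causes of these shifts were not tested.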
